A study of Homo sapiens with 7 samples.

Results

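Rb, the retinoblastoma protein encoded by RB1, was mapped by CUT&RUN at the genes that encode the subunits of condensin. In this assay an antibody directs a nuclease to a chromatin protein, and the DNA fragments it releases are sequenced. The 8 genes were taken by name from 19970 protein-coding genes on chromosomes 1 to 22 and X. They were SMC2 and SMC4, which encode the core shared by both condensin complexes, NCAPD2, NCAPG and NCAPH for condensin I, and NCAPD3, NCAPG2 and NCAPH2 for condensin II. A promoter peak of a gene overlapped the stretch from 2000 bp upstream to 500 bp downstream of any of its annotated transcription start sites (TSSs). The cells were ZR-75-1, a breast cancer line that expresses the oestrogen receptor. Parental cells received DMSO (2 libraries) or 500 nM palbociclib (2 libraries) for 4 days, and RB1 KO cells, which lack the antibody's target, gave 1 library per treatment. The control antibody, IgG2a, has no target in the cell and gave 1 library from palbociclib-treated parental cells. The study derived its RB1 KO cells as sorted clones, and the labels do not say how many clones stood behind the 2 RB1 KO libraries.

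Condensins are ring-shaped ATPase complexes that compact chromosomes for mitosis. SMC2 and SMC4 form the arms and ATPase heads, NCAPH or NCAPH2 is the kleisin that bridges the heads, and NCAPD2 with NCAPG or NCAPD3 with NCAPG2 are the HEAT-repeat subunits that bind the kleisin. Condensin II is nuclear throughout the cell cycle, whereas condensin I gains full access to chromosomes after nuclear envelope breakdown. Hypophosphorylated Rb binds E2F transcription factors at promoters of cell cycle genes, and palbociclib, a CDK4/6 inhibitor, blocks the kinases that phosphorylate Rb.

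The letters under the palbociclib summits are shown first, because the strongest peak, that of NCAPH2, lay on an unusual sequence and to show where the searched motif words fall. Each run is read 5′ to 3′ along the gene's strand from hg38, within 100 bp of the summit of the higher palbociclib peak and outside annotated UTRs. Capitals mark SP/KLF words (GGGCGG), NFY words (CCAAT), CHR words (TTTGAA and also the form with the third base changed, TTCGAA) and E2F core words (the last 7 letters of TTTCCCGC, TTTGGCGC, TTTCGCGC and TTTGCCGC) on either strand.
NCAPH2 (chr22:50507729-50507929, + strand, intergenic): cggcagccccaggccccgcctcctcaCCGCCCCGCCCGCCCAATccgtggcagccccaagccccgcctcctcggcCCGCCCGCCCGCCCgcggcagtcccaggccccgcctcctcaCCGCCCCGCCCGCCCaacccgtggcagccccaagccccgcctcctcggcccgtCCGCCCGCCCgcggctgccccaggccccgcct
NCAPG (chr4:17810800-17810978, + strand, intergenic, ending at the base before the TSS): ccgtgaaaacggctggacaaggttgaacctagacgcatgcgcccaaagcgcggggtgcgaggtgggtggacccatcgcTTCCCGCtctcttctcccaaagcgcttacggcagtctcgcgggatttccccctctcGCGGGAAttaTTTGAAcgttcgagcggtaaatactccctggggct
NCAPD2 (chr12:6493842-6494001, + strand, upstream of the canonical TSS and overlapping an exon of another NCAPD2 transcript): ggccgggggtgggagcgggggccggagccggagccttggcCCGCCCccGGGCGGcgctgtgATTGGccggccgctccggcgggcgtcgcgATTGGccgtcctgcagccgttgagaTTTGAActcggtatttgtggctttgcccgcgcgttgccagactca
NCAPH (chr2:96335893-96336093, + strand, intronic): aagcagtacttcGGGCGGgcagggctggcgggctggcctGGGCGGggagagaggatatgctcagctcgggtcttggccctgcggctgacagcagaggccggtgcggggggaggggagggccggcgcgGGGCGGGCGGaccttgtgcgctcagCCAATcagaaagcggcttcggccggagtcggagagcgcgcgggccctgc
NCAPG2 (chr7:158704892-158705092, - strand, intergenic): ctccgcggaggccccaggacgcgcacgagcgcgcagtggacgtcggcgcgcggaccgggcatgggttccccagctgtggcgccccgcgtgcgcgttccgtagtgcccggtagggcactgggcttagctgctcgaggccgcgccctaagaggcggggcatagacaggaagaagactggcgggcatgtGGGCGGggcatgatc

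The deposited lists hold called peaks and no read totals. The DMSO lists held 996 and 816 peaks, the palbociclib lists 8399 and 8256, the RB1 KO lists 65 and 51, and the IgG2a list 2648. On chromosomes 1 to 22 and X, where genes were counted, the RB1 KO lists held 4 and 5 peaks and the IgG2a list 1724. The lowest background in a list (its floor), which rises with sequencing depth, lay between 0.465 and 0.571 fragments in the 4 parental Rb lists and was 0.655 and 0.446 in the RB1 KO lists. The lowest −log10 p of a called peak was 5.23 and 5.33 with DMSO and 4.15 in both palbociclib lists, so a DMSO peak had to pass a stricter limit.

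All 8 condensin genes had a promoter peak in both palbociclib lists. Among all protein-coding genes the share was 34.9%. With DMSO, SMC4 and NCAPH2 had a promoter peak in both lists and the other 6 genes in neither, beside a share of 2.9% of all genes in both DMSO lists. SMC2, NCAPD2, NCAPG, NCAPH, NCAPD3 and NCAPG2 were thus gained, meaning called in both palbociclib lists and in no DMSO list, as were 28.4% of all genes. No condensin gene had a peak in an RB1 KO list, where 0.01% of all genes had one. The lowest −log10 p called in the RB1 KO lists was 7.06 and 6.33. The weakest of the condensin genes' highest palbociclib peaks, at NCAPD3 in the second list, had a −log10 q of 10.5. A q is a p adjusted for multiple testing, so its −log10 p was no lower than that. These limits come from lists of very different length. In the IgG2a list, 1.95% of all genes had a promoter peak. NCAPG2 was the one condensin gene among them, with a peak of 193 bp, a fold enrichment of 5.01 and a pileup of 7 fragments. That peak lay at an internal transcript start, with its summit 36542 bp downstream of the canonical TSS, and no IgG2a peak lay at the canonical TSS of any condensin gene. Across the 7 lists the 8 genes had 22 promoter peaks and 0 peaks elsewhere in their gene bodies. Genes are not replicates, so these counts carry no test, and in bulk libraries more cells with Rb at a site and more Rb per cell cannot be told apart. When each parental list was shortened to its 816 strongest peaks by −log10 q, NCAPH2 alone was in both palbociclib lists, while SMC4 and NCAPH2 were in both DMSO lists and 0 genes were gained.

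**Figure D1:**
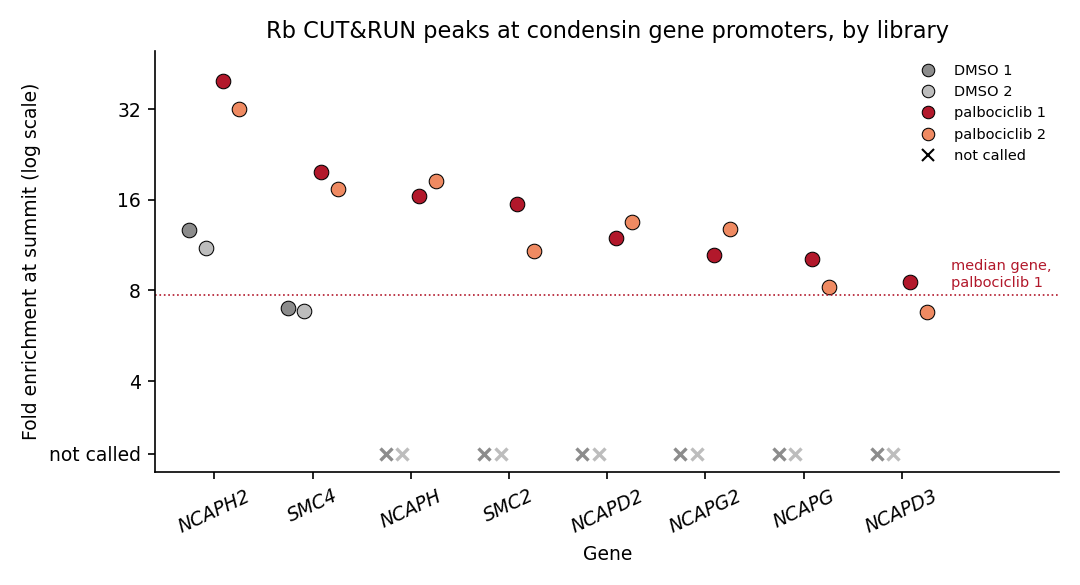
Fold enrichment at the summit of the highest promoter peak (log axis) for each condensin gene in the 4 parental Rb libraries, with crosses where no peak was called; the dotted line marks the median gene of the first palbociclib list. SMC4 and NCAPH2 have values in all 4 libraries, with both palbociclib values above both DMSO values. The mean was also higher with palbociclib at 475 of the 476 regions called in all 4 lists. The other 6 genes have values in the palbociclib libraries only.

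Levels are given as fold enrichment, the authors' ratio of the fragments stacked at the peak summit (the pileup) to the local background, each with 1 added. Over the genes with a peak in both palbociclib lists, the median of the 2-library geometric mean was 8.23, and over the condensin genes it was 12.8. Condensin levels ranged from 8.51 and 6.81 at NCAPD3 to 39.5 and 32.0 at NCAPH2. Of the 8 genes, 7 lay above the all-gene median on this scale. NCAPD3 lay below it, at the 44.2 percentile of the 6974 genes.

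NCAPH2, the condensin II kleisin, had the highest level. Its DMSO fold enrichments were 12.7 and 11.1, and those with palbociclib 39.5 and 32.0 with palbociclib, a mean of 11.9 ± 1.17 against 35.8 ± 5.34 (SD, n = 2 each). Both palbociclib values lay above both DMSO values. The DMSO pileups were 33 and 22 fragments, and the palbociclib pileups 96 and 81. The palbociclib mean ranked 146 among the 6974 genes. Peaks were 989 and 852 bp wide with DMSO and 1297 and 1193 bp with palbociclib. Over all genes with a promoter peak in the list, median widths were 274 and 236.5 bp with DMSO and 517 and 500 bp with palbociclib.

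SMC4, a core ATPase of both complexes, was the other gene called in all 4 parental lists. Its DMSO fold enrichments were 7.0 and 6.83, and those with palbociclib 19.8 and 17.4 with palbociclib, a mean of 6.91 ± 0.124 against 18.6 ± 1.67 (SD, n = 2 each). The groups did not overlap. A higher mean log2 level with palbociclib was shared by 475 of the 476 regions called in all 4 parental lists. The DMSO pileups were 10 and 9 fragments, and the palbociclib pileups 29 and 26. The DMSO peaks, at 220 and 216 bp, were somewhat narrower than the all-gene medians of 274 and 236.5 bp. The palbociclib peaks, at 951 and 1186 bp, were wider than the all-gene medians of 517 and 500 bp. The second palbociclib list held a further SMC4 peak of 169 bp with a fold enrichment of 3.92, at a summit 1149 bp downstream of the canonical TSS.

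The partner ATPase, SMC2, had a fold enrichment of 15.5 and 10.8 with palbociclib and no DMSO peak. Its pileups were 52 and 38 fragments, and their mean was the second highest of the 8 genes. Among the condensin I genes, the kleisin gene NCAPH had 16.5 and 18.4, the HEAT-repeat subunit gene NCAPD2 had 11.9 and 13.5, and NCAPG, encoding the other HEAT-repeat subunit, had 10.2 and 8.19. Their pileups were 24 and 29, 33 and 39, and 24 and 20 fragments. For condensin II, NCAPG2 had a fold enrichment of 10.5 and 12.8 with pileups of 35 and 39, and NCAPD3 had 8.51 and 6.81 with pileups of 24 and 20. For NCAPD3 in the second palbociclib list, the 95% Poisson interval ran from 12.2 to 30.9 fragments, and for NCAPH2 in the first it ran from 77.8 to 117 fragments. These intervals cover counting error only.

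In order of mean log2 fold enrichment with palbociclib the genes ran NCAPH2, SMC4, NCAPH, SMC2, NCAPD2, NCAPG2, NCAPG and NCAPD3. The ranges of the 2 libraries did not overlap between NCAPH2 and SMC4, between NCAPH and SMC2, or between NCAPG2 and NCAPG. The remaining neighbours, SMC4 with NCAPH, SMC2 with NCAPD2, NCAPD2 with NCAPG2, and NCAPG with NCAPD3, overlapped. The local background enters this ratio and differed between genes. SMC4 and NCAPH had backgrounds of 0.516 to 0.628 fragments, close to the floor, and the other 6 genes had 1.45 to 2.61. By mean pileup NCAPH2 stayed first with 88.5 ± 10.6 fragments, followed by SMC2 with 45.0 ± 9.90, NCAPG2 with 37.0 ± 2.83 and NCAPD2 with 36.0 ± 4.24, and SMC4 came after these with 27.5 ± 2.12 (SD, n = 2 each).

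Condensin I and condensin II genes were compared within each palbociclib library as a description, with no test. The mean log2 fold enrichment of the condensin I genes minus that of the condensin II genes was −0.27 in the first library and −0.15 in the second. Without NCAPH2, a choice made after its value was seen, the difference was 0.41 and 0.44, so the sign rested on that gene. The medians had the opposite sign to the means with NCAPH2. They were 11.9 for condensin I and 10.5 for condensin II in the first library, and 13.5 and 12.8 in the second. On log2 pileup in place of fold enrichment the mean difference over both libraries was −0.59. With DMSO, condensin II had 1 gene with a peak in both lists, NCAPH2, and condensin I had none.

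The change between treatments was fitted with limma on log2 fold enrichment over the 476 regions called in all 4 parental lists, of which 2 were condensin promoters. At NCAPH2 the palbociclib minus DMSO difference was 1.58 ± 0.23 (SE, 3.0-fold, limma adjusted p = 1.68e-05), and at SMC4 it was 1.43 ± 0.23 (SE, 2.69-fold, limma adjusted p = 3.14e-05). The exact permutation test on either gene alone gave p = 0.333, two-sided, the smallest that 2 libraries against 2 can give. Of all regions, 475 of 476 (99.8%) were called higher and 0 lower by limma. The median region differed by 1.90 on the log2 scale, or 3.73-fold. The differences at NCAPH2 and SMC4 lay below that median, by −0.31 and −0.47, and 387 and 422 regions had a larger difference than NCAPH2 and SMC4 respectively. When each library was centred on its own median, NCAPH2 and SMC4 turned to −0.34 and −0.50 with limma adjusted p of 0.493 and 0.27, and 0 regions were called higher and 2 lower (29 and 51 at an unadjusted p under 0.05). From these lists an overall rise in Rb signal and a difference in library efficiency between the groups cannot be told apart.

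**Figure D2:**
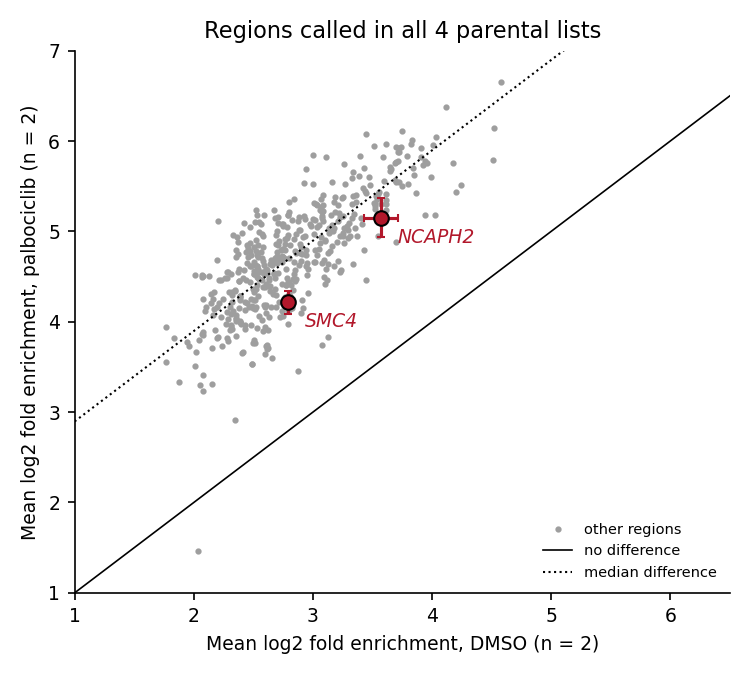
Mean log2 fold enrichment with palbociclib against DMSO (n = 2 each) for the 476 regions called in all 4 parental lists, with SD bars on the 2 condensin promoters; the solid line marks no difference and the dotted line the median difference of 1.90. SMC4 and NCAPH2 lie above the solid line and below the dotted one, so their difference is positive as deposited and turns negative when each library is centred on its median.

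For the 6 gained genes the size of the change is bounded only by what a DMSO list could have called. The smallest pileup that would have passed the DMSO limit at each gene was estimated from the palbociclib background scaled by the floors, on the assumption of the same control signal. It was 6 fragments in both DMSO lists at NCAPH and between 9 and 12 at the other 5 genes, against palbociclib pileups of 20 to 52. Scaled by the floors, the palbociclib pileup was 4.25 times the DMSO limit at NCAPH, 3.81 times at SMC2, 3.31 times at NCAPD2, 3.11 times at NCAPG2, 2.25 times at NCAPG and 2.04 times at NCAPD3. The same ratio measured at the genes called with DMSO was 3.18 at NCAPH2 and 2.81 at SMC4. The ratios at NCAPG and NCAPD3 were below those measured at both SMC4 and NCAPH2. A change of that size would have left NCAPG and NCAPD3 uncalled with DMSO at this depth. The ratio at NCAPG2 lay between those measured at SMC4 and NCAPH2. As it averages over the libraries, it does not say whether each DMSO list would have called NCAPG2. The ratios carry no counting error, which is large at such pileups, and absence from the DMSO lists is not read here as a larger change at any of the 6 genes.

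With palbociclib, summits lay within 250 bp of the gene's nearest annotated TSS at 7 of 8 genes in each library, compared with 81.4% and 82.0% of all genes with a promoter peak. The exception was NCAPH2, whose summit lay at −395 bp from the canonical TSS in both palbociclib lists and in the first DMSO list, and at −446 bp in the second, where negative distances are upstream of the TSS. The summits of SMC4, SMC2 and NCAPH lay downstream of the canonical TSS, 84 bp in both lists for SMC4, 172 and 98 bp for SMC2, and 194 and 227 bp for NCAPH. Those of NCAPD2, NCAPG2, NCAPG and NCAPD3 lay upstream of it, between −201 and −71 bp. From the nearest annotated TSS, the side changed for SMC2 in the first palbociclib list, at −83 bp. It also changed for NCAPD3 in the second, at 113 bp downstream. Replicate summits were within 4 bp of each other at SMC4, NCAPH2, NCAPD2 and NCAPG, and 33 to 100 bp apart at the other 4 genes. Widths repeated less well. The NCAPD3 peak was 1265 bp wide in the first library and 327 bp in the second.

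**Figure D3:**
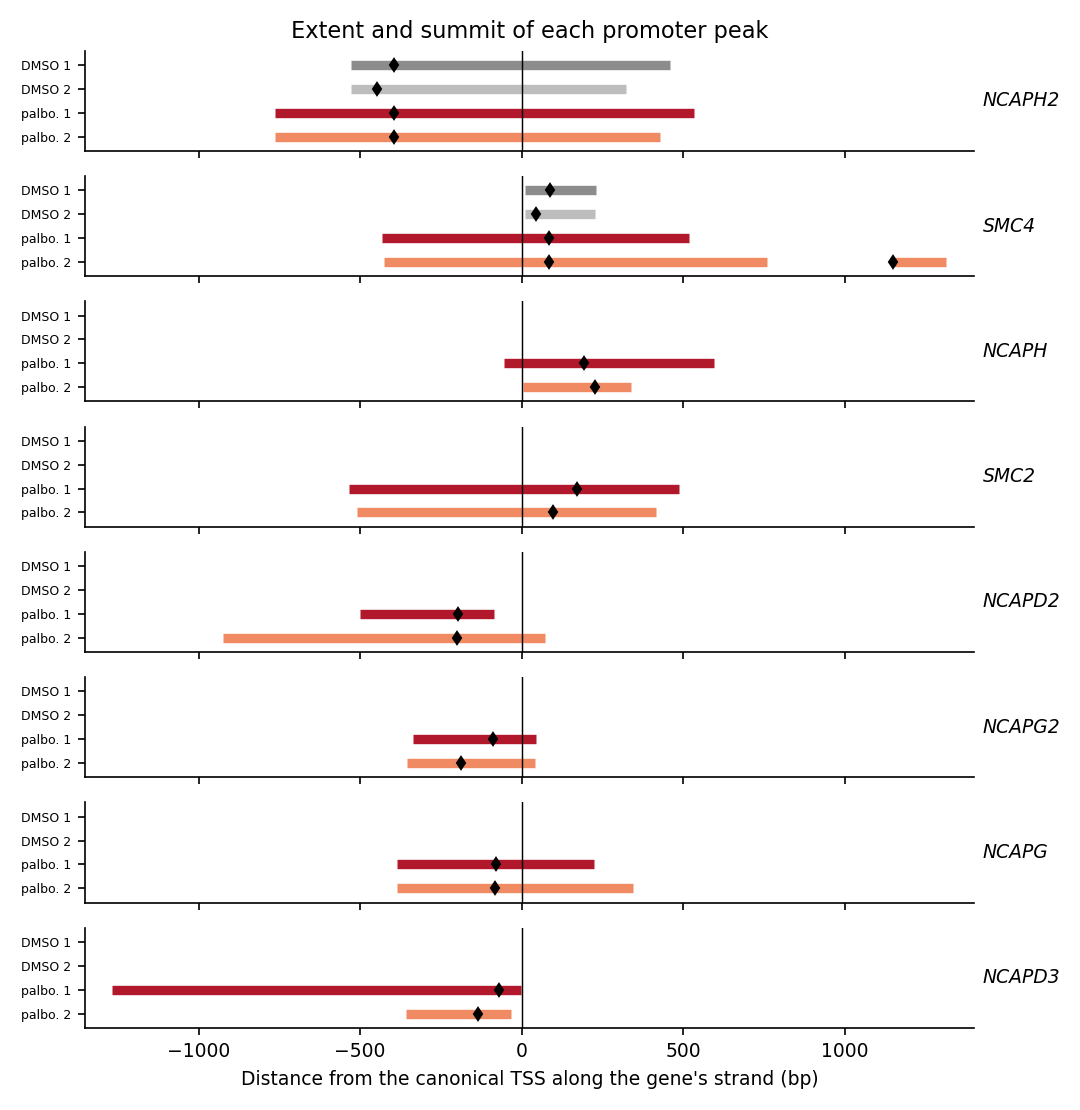
Extent (bars) and summit (diamonds) of each promoter peak in the 4 parental Rb libraries, as distance in bp from the canonical TSS along the gene's strand; empty rows had no called peak. The NCAPH2 summits lie between −446 and −395 bp and all other summits of highest peaks lie within 227 bp of it.

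For 5 of the 8 genes, another protein-coding gene started within 1000 bp on the opposite strand, and the same peak was the highest of both genes in both palbociclib lists. A peak in such a promoter cannot be assigned to either gene. NCAPH2 shared its promoter with LMF2, whose TSS was 522 bp away, and the summit lay 127 bp from the LMF2 TSS and 395 bp from that of NCAPH2. NCAPG shared its promoter with DCAF16, with the summit 79 and 83 bp from the NCAPG TSS and 143 and 139 bp from that of DCAF16. SMC4 and IFT80 had their nearest starts 106 bp apart, NCAPD2 and MRPL51 261 bp apart, and NCAPD3 and VPS26B 704 bp apart. The canonical TSSs of these pairs were 425, 840 and 704 bp apart. At these 3 genes both palbociclib summits were nearer to the condensin gene's canonical TSS than to the partner's canonical TSS. Summit distances to the partner's nearest start were not measured, so no order is given for that start. SMC2, NCAPH and NCAPG2 had no such neighbour.

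The NCAPH2 summit window stood apart by its sequence. It held 11 SP/KLF words, a count reached, with NCAPH2 included, by 7 of 5804 promoter windows (0.121%) in the first palbociclib list and by 5 of 5783 (0.0865%) in the second. Its GC content was 84.1%, compared with a median of 70.6% over all promoter windows and 55.2% at SMC4. Shifted by 90 bases, the window matched itself at 95.5% of positions, and no other promoter window of either list matched itself as well at any shift from 30 to 120 bases, where the median best match was 40.2%. The repeat, taken as the stretch that matched at 80% or more, was 304 bp long, or 3.38 copies of 90 bases, at chr22:50507687-50507990. This comparison was made after the sequence had been seen. No peak was called at this repeat in either RB1 KO list or in the IgG2a list. Reads from near-identical repeat copies can be placed ambiguously, and the part of this in the NCAPH2 level was not tested.

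CHR words, the cell cycle genes homology region bound by the MuvB core of the DREAM complex, were found within 100 bp of the summit at NCAPD2 and NCAPG in both palbociclib lists and at NCAPD3, at −3 bp from the canonical TSS, in the first only. Among all promoter windows of the 2 lists, 4.34% and 4.39% held one. At NCAPG the word began at −35 bp from the TSS, and at NCAPD2 at −145 bp. NFY words, the CCAAT box, were found at 4 of 8 genes (NCAPD2, NCAPH, NCAPD3 and NCAPH2) in both lists, compared with 25.6% and 26.2% of all windows. SP/KLF words were found at 5 of 8 genes, those 4 and NCAPG2, compared with 69.9% and 70.6%.

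The 8-letter E2F words (TTTCCCGC, TTTGGCGC, TTTCGCGC, TTTGCCGC, either strand) were in 0 of 8 condensin windows and in 5.79% and 6.03% of all promoter windows. After that result was seen, the search was widened. Without the first letter, E2F core words were found at NCAPG in both lists and at NCAPH in the first, compared with 24.2% and 24.4% of all windows. NCAPG held 2 such words in the window, beginning at −101 and −45 bp from its TSS, the second just upstream of the CHR word. Within 100 bp of the summit, the ETS word CCGGAAGT was at 0 of 8 genes, compared with 3.19% and 3.34% of windows, and the CRE word TGACGTCA at 0 of 8, compared with 1.1% and 1.09%. SMC2 and SMC4 held none of the searched words in that window.

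In windows of 250 bp to each side of the summit, also chosen after the narrower result was seen, CHR words were found at 6 of 8 genes (SMC2, SMC4, NCAPD2, NCAPG, NCAPD3 and NCAPG2) in both palbociclib lists, compared with 11.9% of all promoter windows in each. The 8-letter E2F words were found at 2 of 8 genes, NCAPD3 and NCAPG2 of condensin II, in both lists, compared with 13.2% in each. E2F core words were found at 5 of 8 genes (SMC4, NCAPG, NCAPH, NCAPD3 and NCAPG2), compared with 46.8% and 47.5%. The ETS word was found at NCAPG and NCAPD3, compared with 8.01% and 8.49%. NFY words were found at 5 genes in the first list and 4 in the second, compared with 44.5% and 45.1%, and SP/KLF words at 5 genes, compared with 93.1% and 93%. The CRE word was at 0 of 8 genes, compared with 2.96% and 3.1%. NCAPH and NCAPH2 were the 2 genes without a CHR word in the wider window. A match is a description of these letters and not a binding site, and these searches carry no test.

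**Figure D4:**
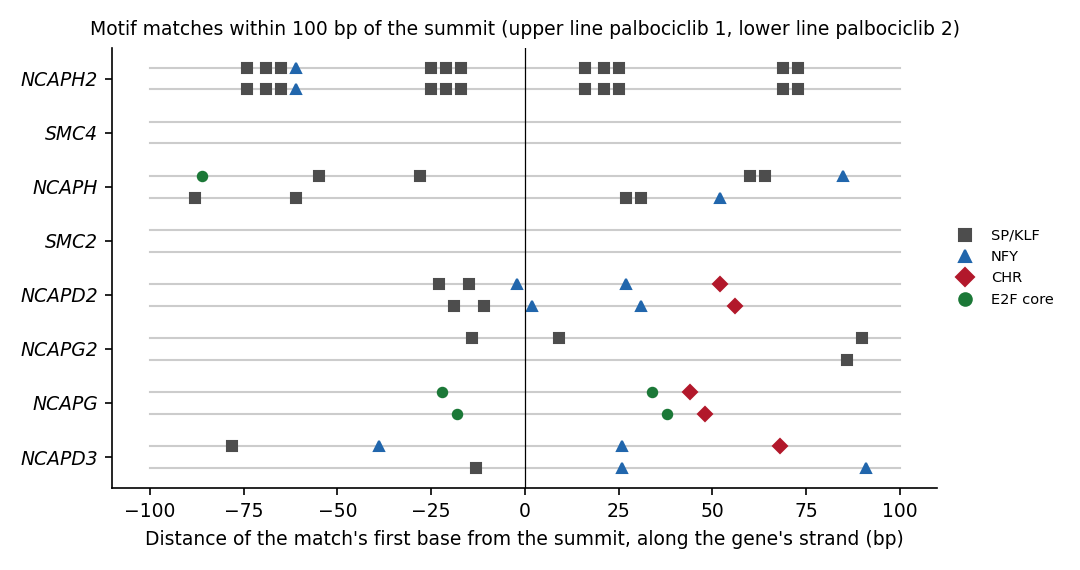
Positions of motif matches within 100 bp of the palbociclib summits of each condensin gene, in bp from the summit along the gene's strand, with 1 line per library. NCAPH2 carries 11 SP/KLF matches in clusters that recur along the window, NCAPG carries a CHR match beside an E2F core match, and SMC2 and SMC4 carry none.

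Related complexes and mitotic partners were described by the same counts. Of all protein-coding genes, 34.9% were in both palbociclib lists, 2.9% in both DMSO lists and 28.4% gained. Of 11 cohesin genes, which encode the complex that holds sister chromatids together, 10 had a promoter peak in both palbociclib lists and NIPBL did not. STAG1, SMC3 and SMC1A were also in both DMSO lists, and 7 genes were gained. The highest was STAG1, a subunit that binds the ring, with a fold enrichment of 44.1 and 36.7, and the lowest PDS5B, a regulator of cohesin release, with 4.35 and 4.60. Of 6 genes of the SMC5/6 complex, which acts in DNA repair, 4 were in both palbociclib lists, 0 in both DMSO lists and 2 gained. That gained count was near the share of all genes. The other 2 of these 4 genes were in 1 DMSO list. SMC5 was the highest with 16.8 and 18.6, and NSMCE3 the lowest with 4.40 and 4.30. SMC5 was also called in the first DMSO list, with 4.12. NSMCE1 and NSMCE2 were not in both.

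Of 15 mitotic chromosome partners, 12 were in both palbociclib lists, 0 in both DMSO lists and 11 gained. The same shares of all genes were 34.9%, 2.9% and 28.4%. TOP2A, the topoisomerase that works beside condensin in mitotic chromosomes, had the highest geometric mean with 20.8 and 16.6, and MKI67, encoding the Ki-67 protein that coats mitotic chromosomes, was higher in the second library, with 20.1 and 16.99. TOP2A was also called in the first DMSO list, with 6.62. BIRC5, encoding survivin, was the lowest with 5.05 and 4.55. PLK1, AURKB and KIF4A, which encode 2 mitotic kinases and a chromosome-bound kinesin, were not in both. No gene of these 3 lists had a peak in an RB1 KO list, where 0.01% of all genes had one. In the IgG2a list, 1 cohesin gene, 1 mitotic partner and 0 SMC5/6 genes had a promoter peak, beside 1.95% of all genes. They were CDCA5 with a fold enrichment of 4.63 and CCNB1 with 5.16, named after their values were seen. The medians of the geometric mean fold enrichment were 12.1 for cohesin, 13.4 for SMC5/6 and 8.26 for the mitotic partners, beside 12.8 for condensin and 8.23 for all genes.

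**Figure D5:**
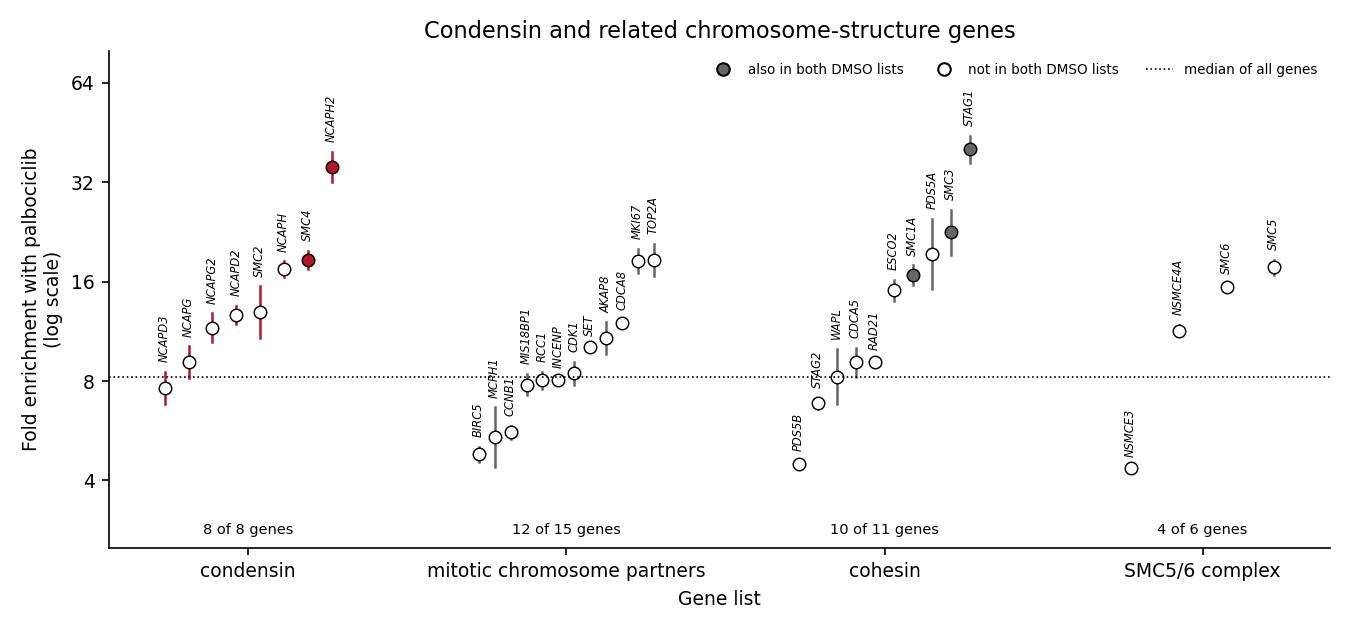
Fold enrichment with palbociclib (log axis) for the genes of each list with a promoter peak in both palbociclib lists; points are geometric means of the 2 libraries and bars join their values. Filled points were also called in both DMSO lists, and the dotted line is the median of all genes, 8.23, which 7 of 8 condensin genes exceed.

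Over the 4 parental lists, the protein-coding genes whose log2 fold enrichments lay nearest to those of each condensin gene were sought among 578 genes called in all 4 lists. For SMC4 it was EIF4EBP2, encoding a repressor of translation initiation, with fold enrichments of 6.84 and 7.19 under DMSO and 20.1 and 17.7 under palbociclib. The Euclidean distance was 0.09 on the log2 scale, compared with a median of 1.03 to all genes compared. For NCAPH2 it was BRIP1, encoding a DNA helicase of the Fanconi anaemia pathway, with 10.9 and 10.3 under DMSO and 39.1 and 32.4 under palbociclib, at a distance of 0.25 against a median of 1.51. Each gene was picked as the nearest, so its distance lies below the median by construction, and no likeness was tested.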

How the data were processed

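The 7 peak lists were deposited by the authors, 1 per library. Per the study's methods, reads were trimmed, aligned to hg38 with Bowtie2 2.3.4.1, and cleared of blacklisted and mitochondrial reads with duplicates kept, and the authors called peaks per library with MACS2 2.2.7.1 against an IgG control at q 0.05. The control of the IgG2a list was not given in the sources used here. The authors' deposited values were fold enrichment (a ratio), −log10 p and −log10 q. The deposited integer score was not used. Replicates were separate biological samples of an experiment performed once.

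Peaks were assigned to genes with GENCODE 44 by an overlap of at least 1 bp, and coordinates were checked against hg38 chromosome lengths. Pileup and background at each summit were recovered from fold enrichment and −log10 p (largest misfit 0.0055). The regions called in all 4 parental lists were fitted with limma 3.58.1 in R 4.3.3 without a block, two-sided, with Benjamini-Hochberg adjustment over all 476 regions at 0.05. The fit was tested on simulated data. Only regions called in every list enter it, so regions absent with DMSO are not measured. Same-numbered replicates share only a number. The genes named were the 8 members, genes starting within 1000 bp, the nearest gene in pattern, and the highest, lowest and uncalled genes of 3 lists. The members, lists and motifs were chosen with earlier results of these data known. Alternatives were window, TSS choice, peak thresholds, list length, centring, block, region set, motif window and each replicate left out.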

Additional observations from a re-analysis of the deposited data

How the results depend on the processing

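Of 77 alternatives computed, 60 were taken as unchanged. Fitted differences kept their direction and side of the threshold, and counts stayed within 1.5 times the main count. The condensin I minus II difference moved by less than the SD of the 2 palbociclib libraries. The counts of condensin genes called with palbociclib, with DMSO and gained (8, 2 and 6) were unchanged with a window of 500 bp to each side, canonical TSSs, a −log10 q of at least 5, a fold enrichment of at least 5, and each parental replicate left out. Lists of equal length, each cut to its 816 strongest peaks, gave 1 in both palbociclib lists, 2 in both DMSO lists and 0 gained. The RB1 KO count was 0 in both alternatives run. The IgG2a count of 1 became 0 with a −log10 q of at least 5 and 0 with canonical TSSs only, the second chosen after seeing the data. Centring on each library's median turned SMC4 to −0.50 and NCAPH2 to −0.34 and gave 0 regions higher and 2 lower. Regions called in at least 1 DMSO list gave 1066 higher and 1 lower of 1124 regions. Leaving out 1 replicate gave 465 to 473 regions higher and 0 to 1 lower, with differences of 1.33 to 1.52 at SMC4 and 1.43 to 1.74 at NCAPH2. In these fits 1 group has a single library, which is assumed to vary like the other group, so the calls are no evidence of stability. With the replicate block, which the labels do not tie to a shared batch, the values were 1.43 at SMC4 and 1.58 at NCAPH2 with 475 regions higher, and the block changed no call. Deviations of same-numbered samples correlated at 0.0748. The condensin I minus II difference of −0.21 was −0.27 to −0.15 with 1 palbociclib replicate left out, −0.59 on log2 pileup and 0.43 without NCAPH2, the last chosen after seeing the data. The cause of these shifts was not tested. Depth was known only through the background floor, and groups of 1 or 2 libraries limit every comparison.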
